A study of Mus musculus with 22 samples.

Results

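The genes described here encode enzymes that rebuild NAD+ from its vitamin precursors, an enzyme that methylates nicotinamide (Nnmt), and 2 enzymes on the cell surface that consume NAD+. They were taken from the deposited gene counts by symbol, and all 10 of the 10 genes (Nampt, Naprt, Nadsyn1, Nmrk1, Nmnat1, Nmnat2, Nmnat3, Nnmt, Cd38 and Bst1) were found among 46078 genes. Poly(A) RNA of the distal colon was sequenced in 22 mice. The groups were C57BL/6 mice aged 14 weeks (n = 8, with 4 males and 4 females), Winnie mice aged 14 weeks (n = 7, with 3 males and 4 females) and Winnie-Prolapse mice, which are Winnie mice with a rectal prolapse, aged 18 weeks (n = 7, with 4 males and 3 females). Winnie mice carry a point mutation in Muc2, the gene of the main secreted mucin of the gut, and develop colitis without any added chemical. Per the study's methods, Winnie and C57BL/6 mice came from 1 breeding colony. No group received a treatment. Age and prolapse cannot be told apart, because only the Winnie-Prolapse mice were 18 weeks old.

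NAD+ carries electrons in metabolism and is also broken down as a substrate, so cells have to replace it. In the salvage route, nicotinamide phosphoribosyltransferase (Nampt) turns nicotinamide into nicotinamide mononucleotide. In the Preiss-Handler route, nicotinate phosphoribosyltransferase (Naprt) starts from nicotinic acid and NAD synthetase (Nadsyn1) performs the last step. The NMNAT enzymes (Nmnat1, Nmnat2 and Nmnat3) complete the dinucleotide in every route, Nmrk1 admits nicotinamide riboside, and Nnmt methylates nicotinamide, which removes it from salvage. Cd38 and Bst1 (CD157) are related surface enzymes, marker proteins of immune cells among other cell types, that cleave NAD+ or its precursors and release nicotinamide.

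The library totals were 24817527 to 36344372 counts. Levels are given as CPM, the counts of a gene for each 1000000 counts in the library. A count of 3 corresponded to 0.0825 to 0.121 CPM, and the lowest count of any of the 10 genes in any library was 17. The 5 epithelial markers examined were detected in every library, as the tissue label would require. Summed over 7 B and plasma cell markers, the libraries held 92.8 to 399 CPM in C57BL/6, 361 to 1437 CPM in Winnie and 842 to 1688 CPM in Winnie-Prolapse. Some libraries stood apart. Milk protein and other lactating mammary gland genes made up 18.0% of the counts of Winnie-Prolapse replicate 6, against at most 0.00542% in the other 21 libraries. These counts are part of its total and so lower the CPM of its other genes. That library held the lowest Winnie-Prolapse CPM of Nmnat1, Nmnat2, Nmnat3, Nmrk1 and Nadsyn1. The sum of 5 squamous epithelium markers was 1.48 to 2594 CPM in Winnie-Prolapse (median 229), 1.39 to 46.9 CPM in Winnie (median 2.13) and at most 2.83 CPM in C57BL/6. Because whole tissue was sequenced, fewer cells of a type and less RNA per cell cannot be told apart in any value below.

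On the build GRCm38, Nampt lies on chr12:32819545-32853349 (plus strand), Naprt on chr15:75890956-75894481 (minus strand) and Nadsyn1 on chr7:143795584-143822849 (minus strand). Bst1 (chr5:43818885-43843986) and Cd38 (chr5:43868553-43912375) are neighbours on the plus strand of chromosome 5, with 24566 bases between them. Naprt shares 277 exon bases with Eef1d on the same strand, and Bst1 shares 98 with Fbxl5 on the opposite strand, so a part of their counts is uncertain. The deposited table types Nadsyn1 as a retained intron, whereas GENCODE M21 types the same identifier as protein coding.

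The promoter windows of 3 genes are printed because Nampt and Cd38 were called higher together and Nadsyn1 lower in Winnie-Prolapse. Each is the 250 bases before the gene's start in RefSeq (GRCm38.p6), read 5′ to 3′ on the strand of the gene. They lie on chr12:32820085-32820334 (Nampt, plus strand), chr5:43868559-43868808 (Cd38, plus strand) and chr7:143822853-143823102 (Nadsyn1, minus strand). The Nampt and Cd38 windows fall inside the gene spans given above, which begin farther upstream than these RefSeq starts. Capitals mark the GC box, GGGCGG on either strand, which is the letter pattern known for Sp1 family factors.
Nampt: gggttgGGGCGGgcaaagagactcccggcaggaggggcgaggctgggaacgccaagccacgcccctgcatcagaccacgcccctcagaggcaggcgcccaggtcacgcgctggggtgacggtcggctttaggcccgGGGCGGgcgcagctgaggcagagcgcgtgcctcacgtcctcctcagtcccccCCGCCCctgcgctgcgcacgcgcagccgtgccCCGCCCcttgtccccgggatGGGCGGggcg
Cd38: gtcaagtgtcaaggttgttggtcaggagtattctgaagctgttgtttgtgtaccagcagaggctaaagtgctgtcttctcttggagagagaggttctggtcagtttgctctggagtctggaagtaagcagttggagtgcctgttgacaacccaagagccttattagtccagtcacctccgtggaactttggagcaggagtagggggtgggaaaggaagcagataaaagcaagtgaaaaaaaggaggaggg
Nadsyn1: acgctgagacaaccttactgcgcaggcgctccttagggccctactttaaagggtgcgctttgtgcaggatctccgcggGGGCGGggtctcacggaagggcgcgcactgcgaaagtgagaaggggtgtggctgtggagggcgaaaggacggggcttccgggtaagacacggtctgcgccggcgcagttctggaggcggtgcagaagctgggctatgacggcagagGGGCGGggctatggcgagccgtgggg
The Nampt window held 5 GC boxes and the Nadsyn1 window 2, while the Cd38 window held 0. G and C made up 75.6% of the Nampt window, 66% of the Nadsyn1 window and 48.8% of the Cd38 window, against a median of 52.4% over all windows. RefSeq windows were matched for 7 of the 10 genes, and no entry was used for Naprt, Nnmt and Bst1. A GC box was present in 4 of these 7 genes (Nampt, Nadsyn1, Nmnat3 and Nmnat1), against 32.7% of 32851 mouse promoter windows of the same length. The first is a share of genes and the second of windows, and Nmnat1 had 2 windows with 1 GC box each. The Nmnat3 window (chr9:98296320-98296569) lies inside its gene span, which begins at 98287435. It matched no annotated transcript start, and neither did 1 of the 2 Nmnat1 windows. Also searched on both strands were the E-box (CACGTG), the GAS element (TTCNNNGAA), the core of the interferon response element (GAAA, any 2 bases, GAAA), the AP-1 site (TGANTCA), the NF-kappaB site (GGGA, any 2 bases, TTCC) and the TATA box (TATAAA). Each was found in 0 of the 7 genes, while 6.02%, 7.02%, 2.98%, 6.75%, 1.21% and 12.4% of all windows held them. With 1 motif present there was no overlap between motifs, and the search describes these letters in these windows only.

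To compare genes with each other, CPM was divided by exon length in kilobases. On that scale Cd38 was the highest of the 10 genes in every group, with a C57BL/6 median of 68.1 CPM per kb, a Winnie median of 102 and a Winnie-Prolapse median of 141. In C57BL/6 the next were Naprt (29.2), Nampt (14.9) and Nadsyn1 (11.6), and the ranges of these 4 genes did not overlap. Nmnat3 (3.49) and Nmnat1 (3.27) overlapped each other, Nmrk1 (1.5) overlapped Nmnat1, and Nnmt (0.773), Nmnat2 (0.390) and Bst1 (0.312) stood at the bottom with overlapping ranges. The order differed in Winnie-Prolapse. There Nampt (29.9) was second with a range apart from that of Naprt (9.42), and Bst1 (2.42) came just after Nadsyn1 (6.45) and before Nmnat1 (2.06), with ranges that overlapped both.

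**Figure D1:**
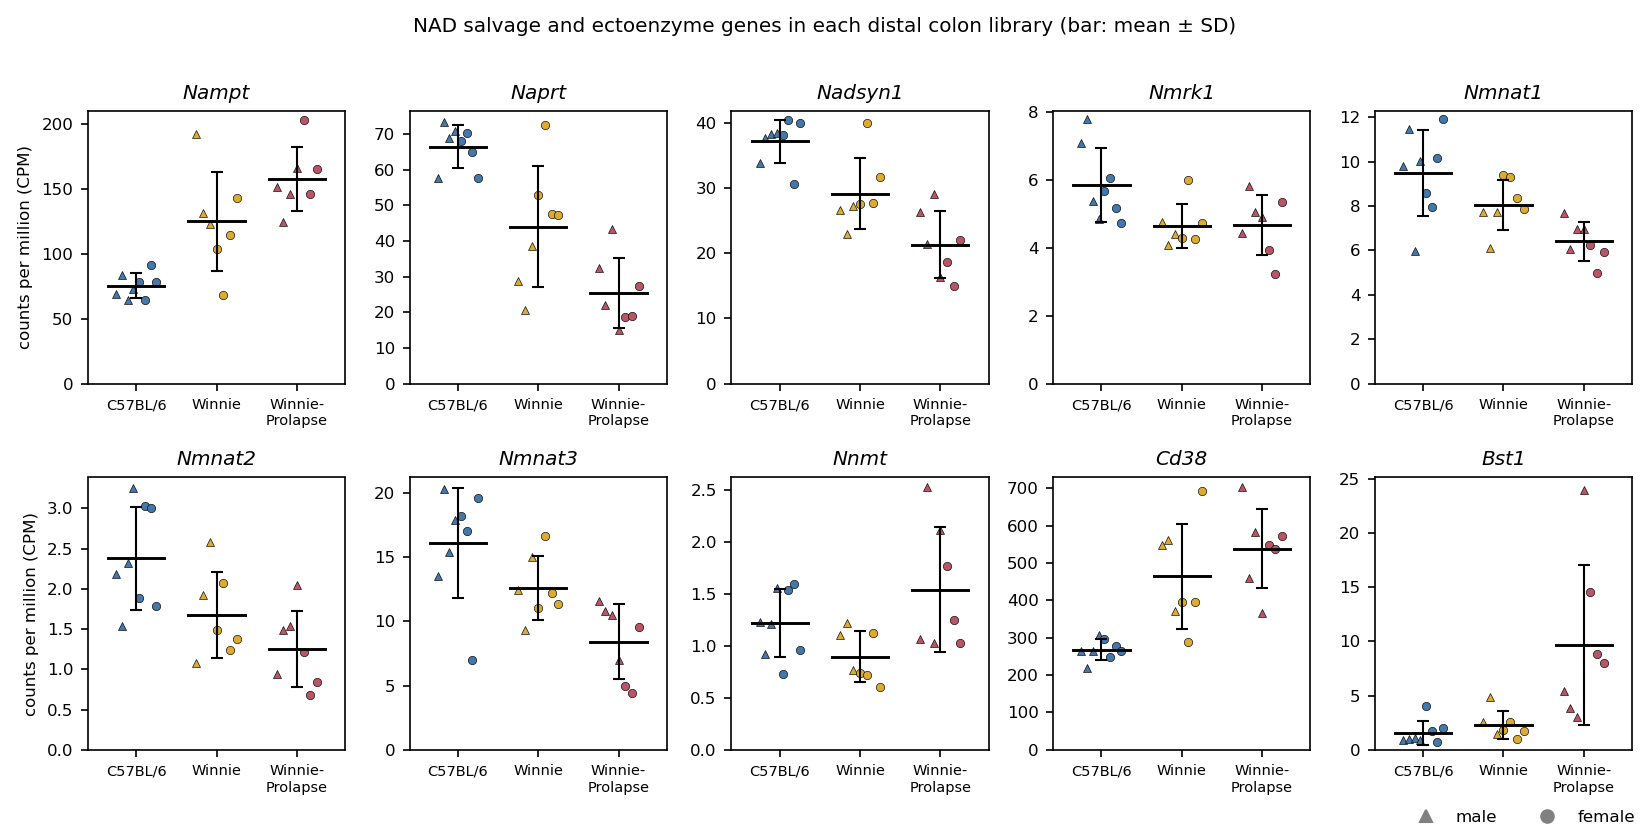
CPM of the 10 genes in each distal colon library, by group; triangles are males, circles are females, the horizontal line is the mean and the error bar the SD (n = 8, 7 and 7). Nampt and Cd38 lie higher and Naprt and Nadsyn1 lower in every Winnie-Prolapse library than in any C57BL/6 library, except that under TMM scaling, not drawn here, Nadsyn1 of Winnie-Prolapse replicate 3 falls inside the C57BL/6 range.

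Differences between groups were tested over all genes with edgeR, and a gene was called at a Benjamini-Hochberg adjusted p under 0.001 and a change of at least 1.5-fold, the limits of the study. Between Winnie-Prolapse and C57BL/6, 5 of the 10 genes were called, beside 18.3% of the 17397 genes tested. Nampt, Cd38 and Bst1 were the 3 higher genes, beside 9.84% of all genes, and Naprt and Nadsyn1 the 2 lower genes, beside 8.47%. The values of 4 of them (all but Bst1) did not overlap in CPM between the groups, beside 16.0% of all genes. With the library totals scaled by the TMM factors of edgeR, which the test uses, there were 3 (without Nadsyn1), beside 16.6%. At an adjusted p under 0.05 with the same fold limit, Nmnat2 and Nmnat3 were also lower, which made 7 of 10, beside 34.4% of all genes. The median log2 difference was -0.36 over the 10 genes and -0.01 over all genes. All 5 calls were lost in males alone, and those of Naprt, Bst1 and Nadsyn1 also in females alone. The log2 values and shares of all genes in these fits stand in the closing section.

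Between Winnie and C57BL/6, edgeR called 0 of the 10 genes, beside 0.0925% of 17289 genes, and DESeq2 called 2 (Nampt and Cd38), beside 5.84% of the 21020 genes to which it gave an adjusted p. At an adjusted p under 0.05 with the fold limit, edgeR also found these 2, beside 15.9% of all genes, and both were higher, beside 7.42%. At an unadjusted p under 0.05 there were 5 of 10, beside 39.9% of all genes, and for 0 genes of the 10 were the groups without overlap, beside 1.64% of all genes (1.60% under TMM scaling). Between Winnie-Prolapse and Winnie, edgeR called 0 of 10, beside 0.00% of 17041 genes, and DESeq2 called Bst1, beside 3.09% of 21148 genes. At an adjusted p under 0.05 with the fold limit Bst1 was the 1 gene of the 10, beside 6.99% of all genes, and it was higher, beside 4.27%. The groups overlapped for all 10, while they did not for 0.962% of all genes (1.12% under TMM scaling), and 6 of 10 had an unadjusted p under 0.05, beside 27.8% of all genes. The comparisons of Winnie and of Winnie-Prolapse with C57BL/6 share their 8 C57BL/6 libraries.

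**Figure D2:**
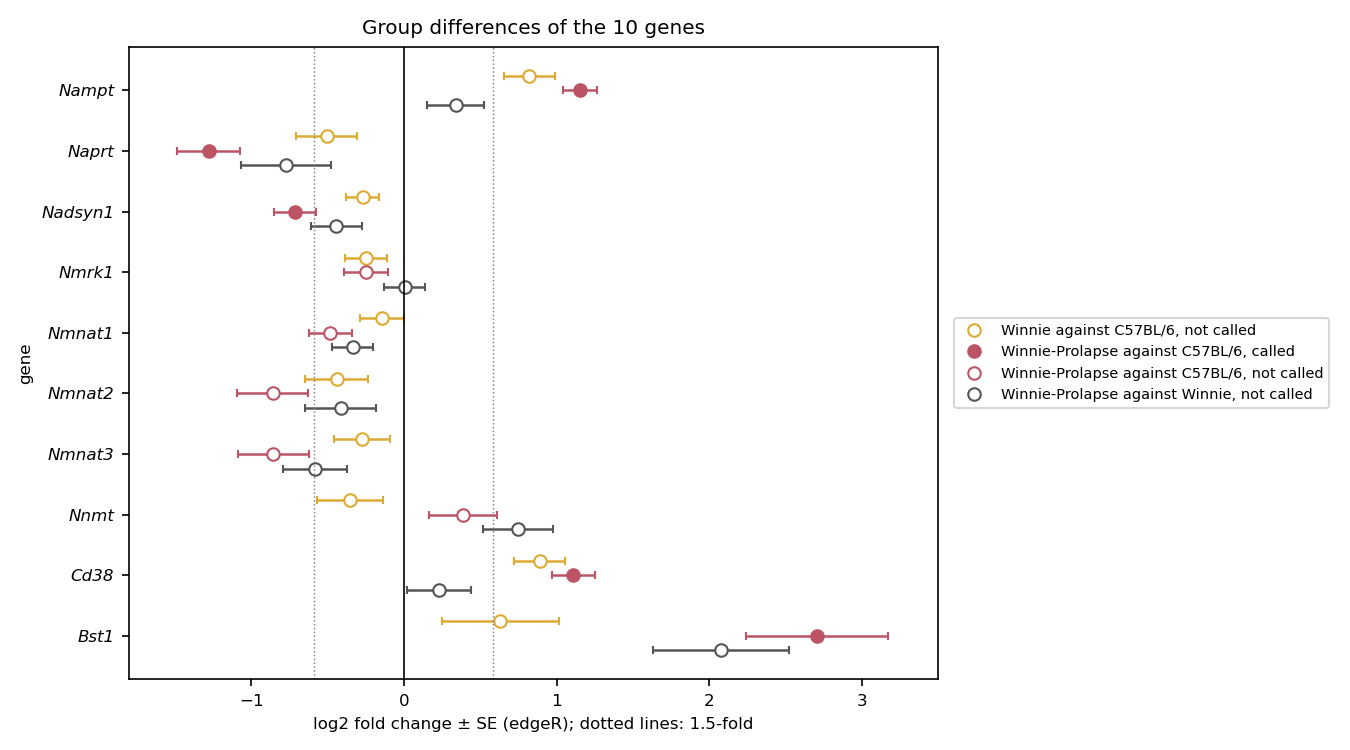
Log2 fold change with its standard error (edgeR, both sexes) of each gene in the 3 group comparisons; filled points were called at an adjusted p under 0.001 and at least 1.5-fold, and dotted lines mark 1.5-fold. Bst1 had the highest value, 2.70 in Winnie-Prolapse against C57BL/6, and Naprt the lowest, -1.28.

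Nampt, which sets the pace of nicotinamide salvage, was higher in both Winnie groups, and called in Winnie-Prolapse. It ranged from 64.0 to 91.5 CPM in C57BL/6 (median 75.3), from 67.8 to 192 CPM in Winnie (median 123) and from 125 to 203 CPM in Winnie-Prolapse (median 151). Every Winnie-Prolapse library and 6 of 7 Winnie libraries were above all C57BL/6 libraries. The log2 difference from C57BL/6 was 1.15 ± 0.11 (SE, edgeR adjusted p = 1.25e-06) in Winnie-Prolapse, a 2.23-fold higher level, and 0.82 ± 0.17 (adjusted p = 0.00479) in Winnie, a 1.77-fold higher level. The Winnie library within the C57BL/6 range was replicate 5, and without it the Winnie difference was 0.93 (adjusted p = 0.000229), past the limits for a call. That library was singled out by its own value here, as for Naprt and Cd38 below. Without it 3.89% of all genes were called, against 0.0925% with it. Over all alternatives the adjusted p of Nampt in Winnie against C57BL/6 ranged from 0.000130 to 0.218, the highest in females alone. Winnie-Prolapse and Winnie overlapped (log2 0.34 ± 0.19, adjusted p = 0.250). Immune cell markers, whose values stand with Cd38 and Bst1 below, were higher in both Winnie groups as well.

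Naprt, the entry enzyme for nicotinic acid, was lower. It ranged from 57.6 to 73.5 CPM in C57BL/6 (median 68.5), from 20.6 to 72.6 CPM in Winnie (median 47.2) and from 15.1 to 43.4 CPM in Winnie-Prolapse (median 22.1). Again all Winnie-Prolapse libraries and 6 of 7 Winnie libraries lay outside the C57BL/6 range, here below it, and Winnie replicate 5 lay inside it. Under TMM scaling 5 of 7 Winnie libraries were below the range, since replicate 4 was inside it and replicate 5 above it. In Winnie-Prolapse the level was 2.42-fold lower than in C57BL/6 (log2 -1.28 ± 0.21, adjusted p = 0.000123). The Winnie value, -0.50 ± 0.20, did not pass either limit (adjusted p = 0.0715, within a range of 0.00352 to 0.605 over all alternatives). It passed the 0.05 and fold limits without replicate 5 (-0.65, adjusted p = 0.0145), in males alone (-1.19, adjusted p = 0.00352), with sex as a covariate (adjusted p = 0.0237), with library totals (adjusted p = 0.0356) and with limma-voom (adjusted p = 0.0401). Against Winnie, the Winnie-Prolapse value was -0.77 ± 0.30 (adjusted p = 0.110, within a range of 0.00522 to 0.996). It passed the 0.05 and fold limits in females alone (-1.31, adjusted p = 0.00522), with all groups in a single fit (-0.76, adjusted p = 0.0456), and without Winnie replicate 2 (-0.90, adjusted p = 0.0413) or Winnie-Prolapse replicate 3 (-0.99, adjusted p = 0.0325).

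Nadsyn1, the amidating enzyme that ends the nicotinic acid route, stood lower beside Naprt. Its lowest, median and highest values were 30.6, 38.2 and 40.4 CPM in C57BL/6, 22.9, 27.5 and 40.0 CPM in Winnie, and 15.0, 21.3 and 29.1 CPM in Winnie-Prolapse. The Winnie-Prolapse and C57BL/6 ranges did not overlap in CPM, and 5 of 7 Winnie libraries were below all C57BL/6 libraries. Under TMM scaling the ranges did overlap, with 6 of 7 Winnie-Prolapse and 4 of 7 Winnie libraries below all C57BL/6 libraries. The Winnie-Prolapse level was 1.64-fold lower than in C57BL/6 (log2 -0.71 ± 0.14, adjusted p = 0.000531). That call sits close to the limit: it was kept in 3 of 15 fits that each left out a library, with an adjusted p of up to 0.00232. It was also lost without the low-count filter (adjusted p = 0.00131), in females alone (-0.85, adjusted p = 0.00657) and in males alone (-0.61, adjusted p = 0.0684), where the 0.05 limit was not passed either. Without Winnie-Prolapse replicate 6 the log2 difference was -0.66 (adjusted p = 0.00206). Winnie differed from C57BL/6 by -0.27 ± 0.11 (adjusted p = 0.0712), and Winnie-Prolapse differed from Winnie by -0.44 ± 0.17 (adjusted p = 0.106, and -0.75 with an adjusted p of 0.0153 in females alone).

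The opposite group differences of Nampt and Naprt were also read as a ratio in each library. The ratio of Nampt to Naprt counts ranged from 0.909 to 1.41 in C57BL/6 (median 1.14), from 0.934 to 6.64 in Winnie (median 3.02) and from 3.36 to 11 in Winnie-Prolapse (median 6.0). Divided by exon length, the medians were 0.530, 1.4 and 2.78, so that Naprt was the higher of the pair in C57BL/6 and Nampt in Winnie-Prolapse. The lowest Winnie-Prolapse ratio was above the highest C57BL/6 ratio, and the Winnie libraries overlapped both. The ratio is a description of the same counts and was given no test of its own. Absorptive colonocyte markers moved with Naprt and Nadsyn1: the summed level of 6 markers had medians of 8050 CPM in C57BL/6 (6163 to 11367), 6133 CPM in Winnie (2676 to 9817) and 1925 CPM in Winnie-Prolapse (1292 to 6277), and 5 of 6 had a lower median in both Winnie groups. The 5 epithelial markers named above did not: their summed medians were 9045 CPM in C57BL/6, 10611 CPM in Winnie and 9972 CPM in Winnie-Prolapse. Of these, 4 had a higher and 1 a lower median in both Winnie groups than in C57BL/6. The part of colonocyte content in the Naprt and Nadsyn1 differences was not tested.

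**Figure D3:**
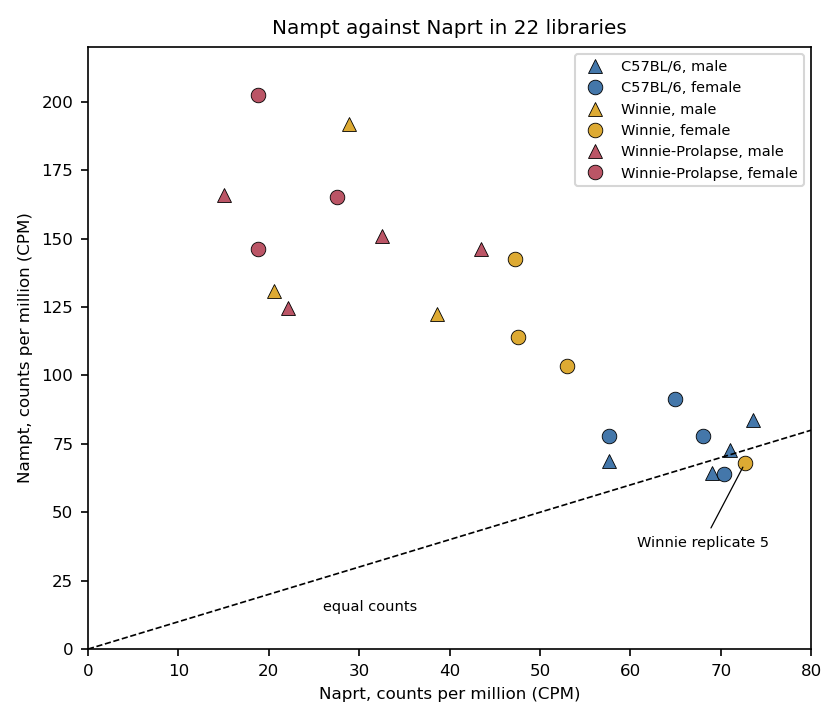
Nampt against Naprt in CPM, 1 point for each of 22 libraries, coloured by group and shaped by sex; the dashed line marks equal counts. C57BL/6 libraries lie near the line at the lower right, Winnie-Prolapse libraries at the upper left with ratios of at least 3.36, and Winnie replicate 5 among the C57BL/6 libraries.

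The NMNAT enzymes differ in where they act: Nmnat1 is nuclear, Nmnat2 is a Golgi and cytosolic enzyme abundant in neurons, and Nmnat3 has been placed in mitochondria. All 3 had lower means in Winnie-Prolapse than in C57BL/6, and none was called at an adjusted p under 0.001. Nmnat3 ranged from 6.96 to 20.3 CPM in C57BL/6 (median 17.4), 9.29 to 16.6 CPM in Winnie (median 12.2) and 4.43 to 11.5 CPM in Winnie-Prolapse (median 9.56). One C57BL/6 library, replicate 7, held the value of 6.96, and the other 7 C57BL/6 libraries, at 13.5 CPM or more, were above every Winnie-Prolapse library. The log2 difference of Winnie-Prolapse from C57BL/6 was -0.85 ± 0.23 (adjusted p = 0.00623), and without that library it was -0.96 (adjusted p = 0.000868, the lowest over all alternatives, whose highest was 0.0709 in females alone), which would be a call. Replicate 7 was singled out by its own Nmnat3 value, and 20.1% of all genes were called without it.

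Nmnat2 ranged from 1.54 to 3.25 CPM in C57BL/6 (median 2.25), 1.07 to 2.58 CPM in Winnie (median 1.49) and 0.685 to 2.05 CPM in Winnie-Prolapse (median 1.21). In Winnie-Prolapse 5 of 7 libraries were below all C57BL/6 libraries (log2 -0.86 ± 0.23, adjusted p = 0.00552). The value of 0.685 CPM was that of replicate 6, with its milk protein counts. Under TMM scaling the Winnie-Prolapse range was 0.821 to 1.88 CPM, with 5 of 7 libraries again below. Without replicate 6 the edgeR adjusted p was 0.0129. In males alone the log2 difference was -0.60 and past neither limit (adjusted p = 0.179, within a range of 0.00121 to 0.179 over all alternatives). Enteric neuron markers moved the same way, and all 7 had lower medians in both Winnie groups: their sum was 77.9 to 186 CPM in C57BL/6, 25.6 to 87.4 CPM in Winnie and 25 to 51.8 CPM in Winnie-Prolapse. Smooth muscle markers, whose sums were 5183 to 9894 CPM in C57BL/6 and 1065 to 2550 CPM in Winnie-Prolapse, did so too, and the part of either tissue layer in the Nmnat2 difference was not tested.

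Nmnat1 ranged from 5.97 to 11.9 CPM in C57BL/6 (median 9.93), 6.09 to 9.39 CPM in Winnie (median 7.87) and 5.00 to 7.66 CPM in Winnie-Prolapse (median 6.24). Its groups overlapped, with a log2 difference of -0.48 ± 0.14 in Winnie-Prolapse against C57BL/6 (adjusted p = 0.00952), under the 1.5-fold limit, and -0.60 in females alone (adjusted p = 0.0451), just past it. Against C57BL/6, the Winnie values were -0.14 ± 0.15 for Nmnat1, -0.44 ± 0.21 for Nmnat2 and -0.28 ± 0.18 for Nmnat3, with adjusted p of 0.482, 0.123 and 0.272. Winnie-Prolapse differed from Winnie by -0.33 ± 0.13, -0.41 ± 0.23 and -0.58 ± 0.21, with adjusted p of 0.119, 0.260 and 0.0914 for Nmnat1, Nmnat2 and Nmnat3. In females alone Nmnat1 (-0.59, adjusted p = 0.0301) and Nmnat3 (-0.99, adjusted p = 0.0488) passed the 0.05 and fold limits there. Summed per kb, the 3 genes had a median of 6.66 CPM per kb in C57BL/6, against 5.40 in Winnie and 4.04 in Winnie-Prolapse. Of that sum Nmnat1 made up 45.5%, 48.7% and 50.5% (medians) and Nmnat3 49.1%, 45.2% and 45.1%, with ranges that overlapped between groups.

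Nmrk1, the nicotinamide riboside kinase, was not called in any comparison. Its values were 4.74 to 7.79 CPM in C57BL/6 (median 5.52), 4.07 to 6.0 CPM in Winnie (median 4.40) and 3.22 to 5.82 CPM in Winnie-Prolapse (median 4.89). The log2 difference from C57BL/6 was -0.25 ± 0.14 in both Winnie (adjusted p = 0.183) and Winnie-Prolapse (adjusted p = 0.157), and 0.01 ± 0.13 between these groups (adjusted p = 0.984).

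Nnmt, the nicotinamide methyltransferase, was among the lowest of the genes. It ranged from 0.733 to 1.59 CPM in C57BL/6 (median 1.22), 0.603 to 1.22 CPM in Winnie (median 0.771) and 1.03 to 2.52 CPM in Winnie-Prolapse (median 1.25). All groups overlapped, and its fitted differences from C57BL/6 had opposite signs, -0.35 ± 0.22 in Winnie (adjusted p = 0.239) and 0.39 ± 0.22 in Winnie-Prolapse (adjusted p = 0.158). Between Winnie-Prolapse and Winnie the difference was 0.75 ± 0.23, with 4 of 7 Winnie-Prolapse libraries above all Winnie libraries, and its adjusted p was 0.0559, within a range of 0.0228 to 0.823 over all alternatives. It passed the 0.05 and fold limits with DESeq2 (0.75, adjusted p = 0.0228), with all groups in a single fit (0.75, adjusted p = 0.0308), and without Winnie replicate 2 (0.81, adjusted p = 0.0407), Winnie-Prolapse replicate 1 (0.82, adjusted p = 0.0406) or Winnie-Prolapse replicate 3 (0.80, adjusted p = 0.0397). Fibroblast markers followed the same order of medians: the sum of 6 markers was 777 to 1038 CPM in C57BL/6 (median 934), 485 to 1572 CPM in Winnie (median 648) and 632 to 2133 CPM in Winnie-Prolapse (median 1359). Of these markers 5 had a lower median in Winnie and 5 a higher median in Winnie-Prolapse than in C57BL/6, none was at 0 throughout, and their part in the Nnmt values was not tested. Nnmt uses S-adenosylmethionine, and of 9 genes of the methyl donor cycle 0 rose and 3 fell in Winnie-Prolapse against C57BL/6 under the rule for a call, beside 9.84% and 8.47% of all genes, and the median log2 difference was -0.33 over the 9 genes and -0.01 over all genes. These were Ahcyl2 (log2 -1.35 ± 0.27), Adk, adenosine kinase (-1.08 ± 0.16), and Ahcy, which splits the product S-adenosylhomocysteine (-0.60 ± 0.09).

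Cd38, the main NAD+ glycohydrolase of many tissues, was higher in both Winnie groups. It ranged from 218 to 307 CPM in C57BL/6 (median 265), from 288 to 693 CPM in Winnie (median 396) and from 366 to 704 CPM in Winnie-Prolapse (median 548). All Winnie-Prolapse libraries and 6 of 7 Winnie libraries were above every C57BL/6 library, and Winnie replicate 5 was the exception. The level was 2.16-fold higher than C57BL/6 in Winnie-Prolapse (log2 1.11 ± 0.14, adjusted p = 1.60e-05) and 1.85-fold higher in Winnie (0.89 ± 0.16, adjusted p = 0.00340). Without Winnie replicate 5 the Winnie value was 0.98 (adjusted p = 0.000320, within a range of 1.71e-05 to 0.190 over all alternatives), which would be a call, beside 3.89% of all genes. Winnie-Prolapse and Winnie differed by 0.23 ± 0.21 (adjusted p = 0.511).

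Bst1 (CD157), the relative of Cd38 next to it on the chromosome, had the largest fitted change of the 10 genes and the widest spread. It ranged from 0.688 to 4.01 CPM in C57BL/6 (median 1.04), from 0.978 to 4.90 CPM in Winnie (median 1.86) and from 3.00 to 24 CPM in Winnie-Prolapse (median 8.02). The groups overlapped: 5 of 7 Winnie-Prolapse libraries were above all C57BL/6 libraries, and the C57BL/6 library with 4.01 CPM, replicate 5, was above the other 2. The level in Winnie-Prolapse was 6.51-fold that of C57BL/6 (log2 2.70 ± 0.46, adjusted p = 0.000201) and 4.21-fold that of Winnie (2.08 ± 0.44, adjusted p = 0.0184, past the 0.05 limit but not the 0.001 limit). In males alone, Winnie-Prolapse and Winnie differed by 1.57 and the 0.05 limit was not passed (adjusted p = 0.823, within a range of 7.42e-05 to 0.823 over all alternatives). Winnie and C57BL/6 differed by 0.63 ± 0.38 (adjusted p = 0.232, within a range of 0.0151 to 0.897). That value was 1.63 in males alone (adjusted p = 0.0151) and 0.99 without C57BL/6 replicate 5 (adjusted p = 0.0420), both past the 0.05 and fold limits, and -0.15 in females alone (adjusted p = 0.897).

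Like Nampt, Cd38 and Bst1, the immune cell markers below had higher medians in both Winnie groups than in C57BL/6. All 7 B and plasma cell markers had higher medians in both Winnie groups than in C57BL/6, with the sums given above. All 6 monocyte and macrophage markers did so as well, with sums of 79.5 to 206 CPM in C57BL/6, 147 to 313 CPM in Winnie and 223 to 665 CPM in Winnie-Prolapse. The 6 neutrophil markers, all with higher medians in both Winnie groups, summed to 4.17 to 359 CPM, 312 to 651 CPM and 525.7 to 1761 CPM. Most of the C57BL/6 sum came from Ly6g, and without that gene, a choice made after its values were seen, the other 5 summed to 0.362 to 2.82 CPM in C57BL/6, 1.35 to 122 CPM in Winnie and 64.5 to 1249 CPM in Winnie-Prolapse. No marker of these lists was at 0 in every library. The part of these cells in the Nampt, Cd38 and Bst1 differences was not tested. Of the 5 epithelial markers, 4 also had higher medians in both Winnie groups, and their part was not tested either. Leaving out Winnie-Prolapse replicate 6, with its milk protein genes, gave log2 differences from C57BL/6 of 1.15 for Nampt, -1.23 for Naprt, 1.09 for Cd38 and 2.69 for Bst1, all of which kept their call.

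The libraries were also read one at a time against the range of the 8 C57BL/6 libraries. In Winnie replicate 5, 9 of the 10 genes lay inside that range in CPM, as did 84.0% of the 17289 genes tested. In the other 6 Winnie libraries 4 or 5 of the 10 lay inside it, beside 44.3% to 62.4% of all genes. Those 6 shared Nampt and Cd38 above the range. Naprt was below it in the same 6, but under TMM scaling replicate 4 was inside it, and 3 to 7 of the 10 genes were inside in these libraries, beside 43.8% to 62.8% of all genes. The 7 Winnie-Prolapse libraries all shared Nampt and Cd38 above and Naprt below under both scalings. Nadsyn1 was below in all 7 in CPM and in 6 under TMM scaling, where replicate 3 was inside the range. Replicates 5 and 6 of Winnie-Prolapse had 9 genes outside the range in CPM, beside 58.8% and 65.6% of the 17397 genes tested, and replicate 3 had 4, beside 54.2%. Under TMM scaling these counts were 9, 8 and 3, beside 59.3%, 61.4% and 48.0%. The gene of replicate 6 that changed sides was Nmnat1, and that library holds the milk protein counts, which are part of its total.

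**Figure D4:**
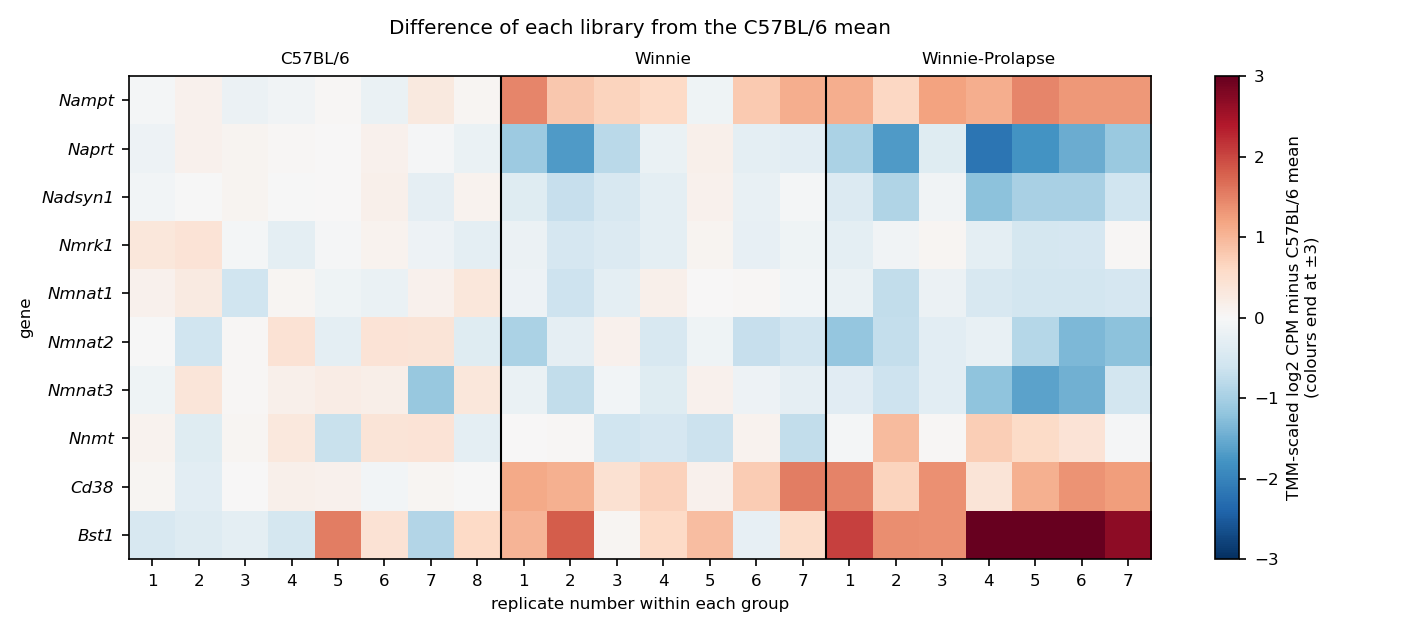
Difference of TMM-scaled log2 CPM from the C57BL/6 mean for each gene (rows) in each library (columns, by group and replicate), from blue for lower to red for higher, with colours ending at 3 in either direction. The Winnie replicate 5 column is pale like the C57BL/6 columns, while Bst1 is darkest in Winnie-Prolapse replicates 4 to 7.

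Sex was examined because each group held both sexes. For the 10 genes, 0 differed between males and females over all groups by edgeR (lowest adjusted p = 0.964), beside 0.0768% of 18236 genes. The lowest unadjusted p of the 10 genes was 0.280 (edgeR). A sex by group interaction was found for 0 of 10 genes in each pair of groups by edgeR, beside 0.00%, 0.00% and 0.0106% of 18911 genes. DESeq2 also gave 0 for sex and for each interaction, but its shares of all genes are not given here. At an unadjusted p under 0.05 there were 2 genes for Winnie against C57BL/6, 0 for Winnie-Prolapse against C57BL/6 and 3 for Winnie-Prolapse against Winnie, beside 13.1%, 5.00% and 15.5% of all genes.

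The lowest of these belonged to Naprt. In Winnie its level was 20.6 to 38.6 CPM in the 3 males and 47.2 to 72.6 CPM in the 4 females, so that every male was below every female. In C57BL/6 the sexes overlapped, at 57.6 to 73.5 CPM in males and 57.6 to 70.4 CPM in females, and in Winnie-Prolapse males held 15.1 to 43.4 CPM and females 18.8 to 27.5 CPM. Fitted within each sex, the log2 difference of Winnie from C57BL/6 was -1.19 ± 0.19 in males and -0.14 ± 0.13 in females. The difference of Winnie-Prolapse from Winnie was 0.01 ± 0.43 in males and -1.31 ± 0.20 in females. The test of the difference between the sexes did not pass in either case, with an adjusted p of 0.305 for Winnie against C57BL/6 and 0.217 for Winnie-Prolapse against Winnie. The second was 0.0324 without Winnie-Prolapse replicate 4, within a range of 0.0324 to 0.536 over all alternatives.

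Around these 10 genes, 31 other genes of NAD+ and nicotinamide metabolism were examined. In Winnie-Prolapse against C57BL/6, 2 of the 27 tested were called higher and 3 lower. Of all genes 9.84% were called higher and 8.47% lower, 18.3% together, so the share of the list was near the background, and the median log2 difference of the list was -0.06 beside -0.01 over all genes. Ido1, which opens the route from tryptophan, had a C57BL/6 mean of 2.37 ± 1.32 CPM (SD, n = 8) and a Winnie-Prolapse mean of 378 ± 348 CPM (SD, n = 7), with all 7 libraries above C57BL/6 (log2 7.38 ± 0.57, adjusted p = 1.86e-07). Pnp, the purine nucleoside phosphorylase, which can split nicotinamide riboside, was at 43.7 and 63.9 CPM (0.62 ± 0.08, adjusted p = 2.51e-05). Among the genes that fell, Sirt3, the mitochondrial NAD+-dependent deacylase, was at 15.9 and 7.35 CPM (-1.01 ± 0.16, adjusted p = 0.000105). Afmid, which follows Ido1 in the tryptophan route, was at 5.50 and 3.03 CPM (-0.77 ± 0.14, adjusted p = 0.000415), and Slc29a1, a nucleoside transporter, at 37.9 and 22.7 CPM (-0.67 ± 0.09, adjusted p = 2.65e-05). The route from tryptophan thus held a gene that rose and a gene that fell.

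In Winnie against C57BL/6, 0 of the 28 list genes tested were called, beside 0.0925% of all genes. At an adjusted p under 0.05 with the fold limit there were 2, beside 15.9% of all genes: Ido1 was higher (log2 5.34 ± 0.90, adjusted p = 0.00213) and Sarm1, an NADase of axons, was lower (-0.78 ± 0.26, adjusted p = 0.0397). Ido1 had a Winnie mean of 89.9 ± 106 CPM (SD, n = 7), with 6 libraries above and 1 below every C57BL/6 library. In Winnie-Prolapse against Winnie, 0 of 27 were called, beside 0.00% of all genes. At the 0.05 limit there was 1, beside 6.99% of all genes: Slc5a8, a transporter of nicotinate and other monocarboxylates, was lower (-0.86 ± 0.21, adjusted p = 0.0269).

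Genes whose levels followed those of each member most closely were found over the 22 libraries after subtracting group means, as a description. Naprt had the highest values, with r = 0.97 for Mkrn1 and 0.96 for Sirt3. Nadsyn1 went with Nr1i2, the xenobiotic receptor PXR (r = 0.96), Nampt with Rnf19b (0.90) and B2m (0.89), Cd38 with Prr13 (0.88), and Bst1 with Gm8995 (0.95) and Plek (0.93). Without the 2 libraries farthest from the median, r was 0.94 for Mkrn1, 0.96 for Sirt3, 0.94 for Nr1i2, 0.78 for Rnf19b and 0.83 for Prr13. With library totals in place of TMM scaling, Naprt and Bst1 kept all 3 of their nearest genes and the other 8 members kept 1 or 2. Among the 10 genes themselves, Naprt and Nadsyn1 had r = 0.89 (Spearman's rho 0.80, and r = 0.83 without the 2 farthest libraries). Within C57BL/6 alone r was 0.20, within Winnie 0.90 and within Winnie-Prolapse 0.98. Nampt and Cd38 had r = 0.63, which was 0.48 without the 2 farthest libraries, and within C57BL/6 alone it was -0.17, within Winnie 0.83 and within Winnie-Prolapse 0.48. Nampt and Naprt had r = -0.29 (Spearman's rho -0.18), which was 0.07 without the 2 farthest libraries. Within C57BL/6 alone their r was -0.26, within Winnie -0.54 and within Winnie-Prolapse 0.15. Bst1 had r = 0.14 with Nampt and -0.07 with Cd38, and 0.23 with either without the 2 farthest libraries. Within Winnie-Prolapse its r was 0.52 with Nampt and -0.39 with Cd38. All these correlations share libraries and depth and come from few animals per group.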

How the data were processed

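RNA of the distal colon of 22 mice was measured by poly(A) RNA sequencing with stranded, paired-end libraries. The deposited table holds raw read counts per gene, as whole numbers with no normalization, which the authors obtained with the RNAsik pipeline on GRCm38. Their processing notes name STAR, featureCounts and limma. The annotation release, strand setting and treatment of shared reads were not given in the sources used here. Groups and sex were read from the labels, which name no batch and hold more Winnie libraries than the Winnie mice in the study's sequencing methods, and replicates were numbered in list order. The labels do not pair mice between groups.

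The test was edgeR's quasi-likelihood F test (edgeR 4.0.16, R 4.3.3) with TMM normalization, filterByExpr and Benjamini-Hochberg adjustment over all genes, on the 2 groups compared. All 10 genes passed the filter in each comparison. Sex was tested in all libraries together, with group in the model. CPM used library totals. Log2 CPM, used for the heat map and the correlations, was scaled by TMM factors of all 22 libraries, with a prior count of 2. Exon lengths and positions were taken from GENCODE M21, and Naxe and Naxd of the wider NAD+ list were matched by older symbols. Where a symbol stood for several genes, the one with most counts was used. The genes, lists and tests were chosen with earlier results of these data known. All 10 genes were named, and of the lists the called genes with the 3 largest changes in each direction. Genes named at the 0.05 limit were chosen after their values were seen. Of the genes most like each member, not all are reported here.

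Alternatives were library totals without TMM, DESeq2 1.42.0, limma-voom (limma 3.58.1), other filters, sex as a covariate, each sex alone, all groups in a single fit, a bias-adjusted fit and TMM-scaled CPM for ranges (both added after seeing the data) and leaving out each library. Tests were run on simulated data first. Libraries of a group differed by far more than sampling noise (chi-square per degree of freedom of at least 28.8), and none was treated as a duplicate. Counting floors cover counting error only, and the spread is between mice.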

Additional observations from a re-analysis of the deposited data

Results flagged for a closer look

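Of 30 sets of values, 1 for each gene in each group, 3 had a library at an end of the range that was far from the others by Dixon's test. Chance alone would flag about 1 in 20 such sets. Nmrk1 was at 6.0 CPM in Winnie replicate 5, and at 4.07 to 4.76 CPM in the other 6 Winnie libraries. This is the library in which 9 of the 10 genes lay inside the C57BL/6 range. Bst1 was at 4.01 CPM in C57BL/6 replicate 5, and at 0.688 to 2.05 CPM in the other 7 C57BL/6 libraries. Bst1 was also at 4.90 CPM in Winnie replicate 2, and at 0.978 to 2.56 CPM in the other 6 Winnie libraries. Without Winnie replicate 2 the log2 difference of Bst1 between Winnie and C57BL/6 was 0.36 (edgeR adjusted p = 0.512), and without C57BL/6 replicate 5 it was 0.99 (adjusted p = 0.0420). Neither passed the limits for a call.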

How the results depend on the processing

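Of the recomputed counts of called genes, 119 stayed within 1.5 times their value and 8 did not. For Winnie against C57BL/6, called genes went from 0 to 2 (Nampt and Cd38) with DESeq2, at an adjusted p under 0.05 and without Winnie replicate 5, so that leaving out single libraries gave 0 to 2. Of all genes, 5.84%, 15.9% and 3.89% were called in these fits, and at most 0.186% on leaving out any other library. For Winnie-Prolapse against C57BL/6, they went from 5 to 0 in males alone (4 against 4 mice, with 1.76% of all genes called) and to 2 in females alone (Nampt and Cd38, 3 against 4 mice, with 1.45% called), and leaving out single libraries gave 4 to 6, with 14.4% to 20.8% of all genes called. The count of 6 came without C57BL/6 replicate 7, which added Nmnat3 (20.1% of all genes called), and the counts of 4 lacked Nadsyn1. Testing each sex alone used fewer mice. The log2 differences in males alone were 1.06 for Nampt, 1.06 for Cd38, -1.18 for Naprt, 3.19 for Bst1 and -0.61 for Nadsyn1. In females alone, the uncalled Naprt, Bst1 and Nadsyn1 were at -1.43, 2.45 and -0.85. For Winnie-Prolapse against Winnie, Bst1 made the count 1 with DESeq2 and at an adjusted p under 0.05. The count of sex by group interactions was 0 to 1 on leaving out single libraries, and 1 (Naprt) without Winnie-Prolapse replicate 4. The share of all genes in that fit is not given here, so the Naprt count has no background to be read against. Signs turned only for log2 differences that were not called. Bst1 in Winnie against C57BL/6 was -0.15 in females alone. In Winnie-Prolapse against Winnie, Nampt was -0.0081 and Naprt 0.012 in males alone, and Nmrk1 was -0.19 in females alone and between -0.047 and 0.064 on leaving out single libraries. The cause was not tested in these cases. With TMM-scaled CPM, 3 in place of 4 genes had no overlap between Winnie-Prolapse and C57BL/6. Library totals without TMM moved the median of all genes by at most 0.08 on the log2 scale. No paired analysis was possible because the labels give no replicate numbers shared between groups. Few mice per group and the low counts of Nmnat2, Nnmt and Bst1 limit precision.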
